A study of Mus musculus with 8 samples.

Results

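The mitochondrial carriers of the solute carrier family 25 (Slc25) were compared between primitive erythroid precursors, the first red cell precursors of the mouse embryo, and epithelial cells of the yolk sac. Members were all genes whose symbol in the array's annotation begins with Slc25a, leaving out Slc25a37. They numbered 32 genes on 64 probe sets, of 12393 genes and 22626 probe sets on the array (an Affymetrix mouse expression array). Both kinds of cell came from yolk sacs of FVB/N mice at embryonic day 9.5, with no other genotype or treatment named in the labels. They were captured with a laser from frozen sections in 4 pairs, with 1 array for each of the 4 erythroid and 4 epithelial captures. Each replicate pooled 2 to 4 yolk sacs from 2 litters, and about 1 erythroid cell was gained for 2 to 3 laser pulses against 1 epithelial cell per pulse.

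Slc25 carriers are proteins of the inner mitochondrial membrane that exchange nucleotides, phosphate, organic acids, amino acids and cofactors between the mitochondrial matrix and the cytosol. They are made on cytosolic ribosomes and brought into the membrane by the carrier import machinery. In developing red cells some of them serve heme synthesis, which begins and ends inside mitochondria. In endoderm-like epithelia and the liver, others serve the urea cycle, glucose and lipid metabolism.

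The arrays measured the intensity of each probe set on a linear scale, and the medians of the 8 arrays lay between 81.6 and 127. Background on each array was set at the level that 95% of 117 probe sets for beta-defensins, keratin-associated proteins and receptors of odour or taste stay under, and 48.7% to 57.7% of probe sets lay above it. The labelled cell types were checked against marker lists: 7 of 8 tested erythroid markers were higher in the erythroid captures and 0 lower, and 7 of 9 visceral endoderm markers were lower and 0 higher. Of markers for other cell types, 6 of 9 for mesenchyme and mesothelium, 3 of 6 for platelets, 1 of 4 for endothelium and 0 of 2 for leukocytes were higher in the erythroid captures and 0 lower. The summed intensity of the mesenchyme list ran from 28264.1 to 51609.9 in erythroid and from 6774.7 to 25605.5 in epithelial captures. That of the endoderm list was 51829.2 to 89857.3 in erythroid and 80687.2 to 144096 in epithelial captures, so both lists gave signal in both kinds of capture. Its brightest genes, Afp and Ttr, were not called and averaged 26340 and 28476.9 in erythroid against 26125.4 and 29130.3 in epithelial captures. The erythroid list summed to 28431.9 to 50098.7 in erythroid and 5671.96 to 12744 in epithelial captures. The platelet list summed to 5181.85 to 18925.5 in erythroid and 1733.44 to 2855.08 in epithelial captures. The Gapdh control probe sets at the 3' end were 38.7 to 44.4 times as bright as those at the 5' end in pairs 1 and 2, a ratio read as a guide to RNA length. In pairs 3 and 4 this ratio was 7.0 to 17.4. Values within each set of pairs are therefore given for the carriers. The part of these features in the differences below was not tested. In such captures, fewer cells of a type and less RNA per cell cannot be told apart.

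The carriers were lower in the erythroid captures where they were called. Of 25 members bright enough to be tested, 5 fell and 0 rose at an adjusted p under 0.05 in the paired limma fit, beside 8.87% of all 7191 genes tested called lower and 6.02% called higher. The 5 were the ornithine carrier Slc25a15, the dicarboxylate carrier Slc25a10, the S-adenosylmethionine carrier Slc25a26, the phosphate carrier Slc25a3 and the adenine nucleotide carrier Slc25a4. At an unadjusted p under 0.05 limma gave 8 of the 25 members lower and 1 higher, beside 16.8% and 14.3% of all genes tested. Values lay below 0 for 20 of the 25 members and above 0 for 5, and their median was -0.35 on the log2 scale against -0.01 over all genes tested. Over all probe sets 709 were called higher and 881 lower (44.6% of calls higher). With arrays centred on their medians, which moved the median of all probe sets from 0.02 to -0.11, the counts were 455 and 1097 (29.3%). There 3 of the 25 members were called lower, beside 11% of all genes tested. The deposited scaling and centring on 75th percentiles gave 2 of 25 each, beside 8.46% and 8.68% of all genes tested. The members called lower numbered 1 without pair 4, 2 without pair 3 and 3 without pair 2, where 3.42%, 4.68% and 8.26% of all genes tested were called lower. The groups did not overlap for 12% of the members (3 of 25), beside 14.3% of all genes tested. Differences are erythroid minus epithelial on the log2 scale after quantile normalisation, with the standard error (SE) of the fit over 4 pairs, and levels are the deposited intensities. Precision is limited by the 4 arrays per group: the 95% interval lay within 1 log2 unit of 0 for 13 of the 25 members.

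**Figure D1:**
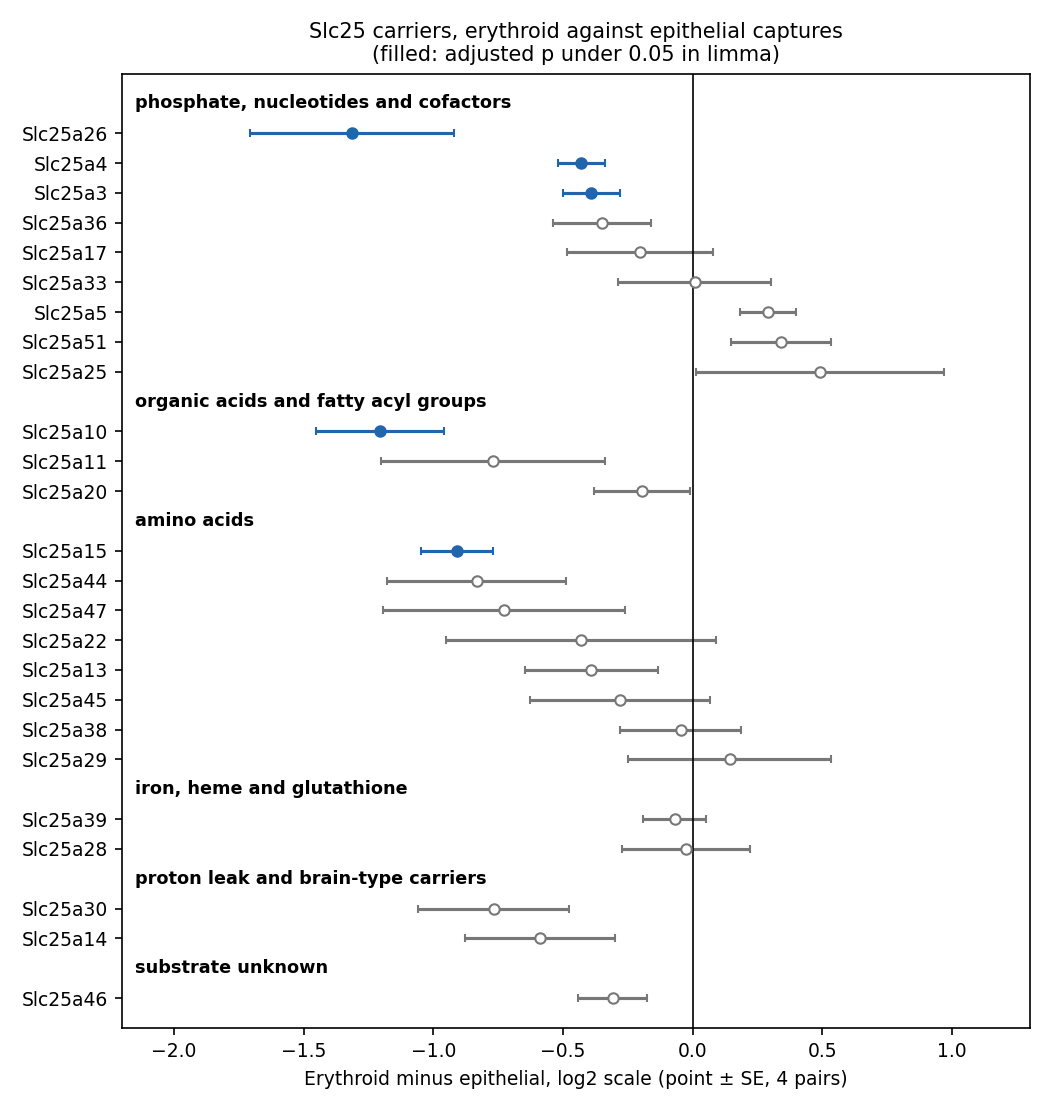
Difference between erythroid and epithelial captures on the log2 scale (x axis, point ± SE over 4 pairs) for the 25 tested carriers, grouped by what they carry. Filled points are the 5 called lower, from Slc25a3 at -0.39 to Slc25a26 at -1.31, and 20 of the 25 points lie left of 0.

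Of the other 7 members, whose probe sets were too dim to be tested, Slc25a23, Slc25a24, Slc25a35 and Slc25a48 were not above background on any array. Slc25a2, Slc25a42 and Slc25a53 were above it on at least 1 array. The filter asked that 4 of 8 arrays or more show a probe set at or above their median, so the tested members are not all members.

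For the carriers whose differences stand out, the 250 bases before the outermost start of the gene are shown, 5′ to 3′ on the gene's strand, from the RefSeq promoter table (build GRCm38.p6), in which 26 of the 32 members were matched. Slc25a15 and Slc25a10 were the called carriers that kept their call under most settings, and Slc25a4 and Slc25a5 are close relatives with values on opposite sides of 0. The windows are chr8:22398622-22398871 (minus strand) for Slc25a15, chr11:120491587-120491836 (plus) for Slc25a10, chr8:46211063-46211312 (minus) for Slc25a4 and chrX:36795347-36795596 (plus) for Slc25a5. Capitals mark letters that match a motif on either strand: AGATAA for GATA factors, GGGCGG (the GC box), CCGGAAG for Ets factors, CACGTG (the E-box) or AAGGTCA for estrogen-related receptors.
Slc25a15: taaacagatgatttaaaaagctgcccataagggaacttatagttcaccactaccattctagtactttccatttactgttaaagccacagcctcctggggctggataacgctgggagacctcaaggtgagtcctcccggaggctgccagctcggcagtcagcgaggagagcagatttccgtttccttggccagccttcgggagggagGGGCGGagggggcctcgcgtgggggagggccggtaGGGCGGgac
Slc25a10: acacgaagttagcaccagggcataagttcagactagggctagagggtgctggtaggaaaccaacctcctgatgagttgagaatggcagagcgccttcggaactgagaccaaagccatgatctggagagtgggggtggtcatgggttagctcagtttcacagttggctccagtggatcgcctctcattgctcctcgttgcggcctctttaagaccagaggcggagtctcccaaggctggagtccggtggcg
Slc25a4: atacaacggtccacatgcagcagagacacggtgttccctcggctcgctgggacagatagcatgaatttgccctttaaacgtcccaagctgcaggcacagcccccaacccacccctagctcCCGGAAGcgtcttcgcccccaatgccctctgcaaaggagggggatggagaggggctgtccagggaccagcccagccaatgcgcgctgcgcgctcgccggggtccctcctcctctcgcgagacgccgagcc
Slc25a5: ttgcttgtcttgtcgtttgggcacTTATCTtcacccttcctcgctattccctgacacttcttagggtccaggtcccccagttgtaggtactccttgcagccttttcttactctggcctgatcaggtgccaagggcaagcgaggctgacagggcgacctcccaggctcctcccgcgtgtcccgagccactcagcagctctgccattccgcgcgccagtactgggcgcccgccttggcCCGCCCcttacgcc

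The GC box was matched upstream of 21 of the 26 carriers. Counted by windows, it was in 28 of their 35, and in 32.7% of all windows of this length in the table. In the windows shown, Slc25a15 held 2 GC boxes, Slc25a5 1 GC box and 1 GATA match, Slc25a4 1 Ets match and Slc25a10 none of the 5 motifs. The GATA letters were found upstream of 2 of 26 carriers, Slc25a5 and Slc25a53, in 2 of 35 windows, and in 9.99% of all windows. The Ets letters stood upstream of 5 carriers, in 5 of 35 windows (6.91% of all windows). The E-box stood upstream of 5, in 6 of 35 windows (6.02%). The letters for estrogen-related receptors were found upstream of 0 carriers and in 4.08% of all windows. A match describes these letters and not a bound site. A gene with several starts has a window for each, and the E-box match of Slc25a15 lay in the window of its other start.

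Carriers of phosphate, nucleotides and cofactors gave 3 of 9 tested members lower and 0 higher, with a median of -0.20. Of all genes tested, 8.87% were called lower and 6.02% higher, and these shares stand beside the count of each group of carriers. Slc25a4, also called ANT1, exchanges ADP for ATP across the inner membrane. Its brightest probe set read 19253, 25850.3, 21222 and 11227 in the erythroid captures of pairs 1 to 4, and 28034, 21378, 28043 and 14693 in the epithelial ones. As deposited, the erythroid value was lower in 3 pairs and higher in pair 2. After quantile normalisation it was lower in all 4 pairs, the groups did not overlap, and the difference was -0.43 ± 0.09 (adjusted p = 0.0121). That call ended with the deposited scaling (-0.26, adjusted p = 0.27), with arrays centred on their medians or 75th percentiles (0.318 and 0.373), without pair 3 (0.0845), without pair 4 (0.0524) and with the mean of its probe sets (0.0509). Its adjusted p spanned 0.000236 to 0.373 across the alternatives. Its other tested probe sets gave -0.52 (adjusted p = 0.0995) and -0.57 (0.0557).

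Slc25a5, or ANT2, carries the same nucleotides. All 8 of its probe sets were tested, all 8 had values above 0 over the 4 pairs and none was called. In pairs 1 and 2 all 8 were above 0 (0.16 to 0.81), while in pairs 3 and 4 the range was -0.34 to 0.41 with 5 of 8 below 0. The brightest read 12722, 14499, 11910.2 and 8127 in the erythroid and 12560.3, 10167, 8500.0 and 6557 in the epithelial captures of pairs 1 to 4. It was higher in all 4 pairs, with overlapping groups, at 0.29 ± 0.11 (adjusted p = 0.0986). The change of Slc25a4 minus that of Slc25a5 on these probe sets was -0.51, -0.41, -0.97 and -0.98 in pairs 1 to 4, a mean of -0.72 (SD 0.30, n = 4 pairs). A two-sided exact sign-flip test gave p = 0.125, the smallest that 4 pairs allow. With the mean of each gene's tested probe sets the difference was -0.71 (SD 0.15, n = 4 pairs, exact p = 0.125). This contrast was chosen after the values were seen. Several of these probe sets carry a suffix for probes shared between transcripts, so the split of signal between the 2 genes is uncertain.

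Slc25a3 brings phosphate into the matrix for ATP synthesis. Its probe set read 7053, 5846, 11931 and 10526 in erythroid and 8470.1, 6661, 16717 and 14043 in epithelial captures of pairs 1 to 4. The erythroid value was the lower one in each pair, while the groups overlapped, since both captures of pairs 3 and 4 were brighter than those of pairs 1 and 2. The difference was -0.39 ± 0.11 (adjusted p = 0.0409, with a range of 0.00125 to 0.641 over all alternatives). The call ended with each other scaling (0.117 to 0.18), without pair 2 (0.0605), without pair 3 (0.181) and without pair 4 (0.19).

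Slc25a26 brings S-adenosylmethionine, the methyl donor, into mitochondria. It read 119, 29.7, 77.0 and 147 in erythroid and 166, 157, 245 and 217 in epithelial captures of pairs 1 to 4, so the deposited values of the groups did not overlap, while the normalised ones did. It was above background on 2 of 4 erythroid and on all 4 epithelial arrays. The difference of -1.31 ± 0.39 lay just inside the threshold (adjusted p = 0.0494). The call ended when any pair was left out (0.0698 to 0.167), and its alternatives spanned adjusted p of 0.0337 to 0.327. Of the carriers not called in this group, Slc25a51, which brings NAD into mitochondria, was at 0.34 ± 0.19 and higher in all 4 pairs (adjusted p = 0.271). The pyrimidine nucleotide carriers Slc25a33 and Slc25a36 were at 0.01 ± 0.29 and -0.35 ± 0.19, with arrays centred on their medians taking Slc25a33 to -0.07. The peroxisomal carrier Slc25a17 was at -0.20 ± 0.28.

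Slc25a25 is a calcium-regulated carrier of ATP-Mg and phosphate. It read 176, 121, 254 and 215 in erythroid and 172, 264, 43.3 and 58.7 in epithelial captures of pairs 1 to 4. The erythroid value was well above the epithelial one in pairs 3 and 4 only. There the epithelial values were near the floor, with background at 90.5 on the array of pair 3 and 55.1 on that of pair 4. The difference was 0.49 ± 0.48 over all pairs (adjusted p = 0.539). Pairs 1 and 2 gave -0.62, against 1.60 for pairs 3 and 4, and the contrast of the sets did not pass its test (adjusted p = 0.147).

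**Figure D2:**
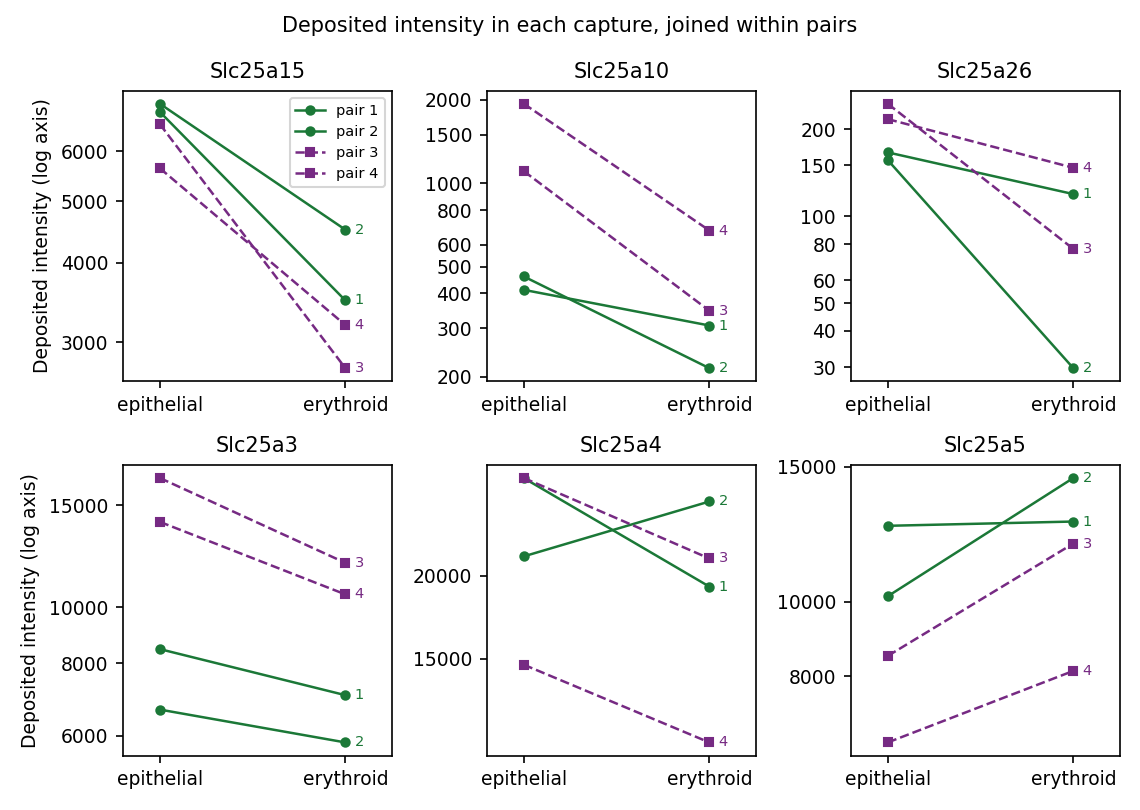
Deposited intensity (y axis, log scale) of the 5 called carriers and Slc25a5 in the epithelial and erythroid capture of each pair, joined by a line. The lines of Slc25a15 run from at least 5641 in epithelial to at most 4512 in erythroid captures, those of Slc25a5 all rise, and pair 2 of Slc25a4 rises where the other pairs fall.

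Among carriers of organic acids and fatty acyl groups, 1 of 3 tested members was lower and 0 higher, with a median of -0.77. Slc25a10 exchanges malate and succinate for phosphate. It read 306, 215, 347 and 675 in erythroid and 412, 461, 1107 and 1939 in epithelial captures of pairs 1 to 4. The epithelial value was the higher one in every pair, with the widest gaps in pairs 3 and 4, and the groups overlapped between pairs. The difference was -1.21 ± 0.25 (adjusted p = 0.01), a fold of 2.31. It was -0.78 within pairs 1 and 2, against -1.64 within pairs 3 and 4. The call ended without pair 4 (adjusted p = 0.0771), and its alternatives spanned adjusted p of 8.77e-06 to 0.176.

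Slc25a11 exchanges 2-oxoglutarate for malate in the malate-aspartate shuttle. It read 289.8, 100.1, 282 and 628 in erythroid and 118, 438, 764 and 927 in epithelial captures. Pair 1 went against the other 3 pairs, and the difference was -0.77 ± 0.43 (adjusted p = 0.265). Without pair 1 it was -1.41 (adjusted p = 0.0172, with a range of 0.0102 to 0.674 over all alternatives). Slc25a20, the carnitine and acylcarnitine carrier of fatty acid oxidation, was at -0.19 ± 0.19 (adjusted p = 0.529).

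Of 8 tested carriers grouped here under amino acids, Slc25a47 among them, 1 was lower and 0 higher, with a median of -0.41. Slc25a15 exchanges ornithine for citrulline, a step of the urea cycle, and supplies ornithine for other mitochondrial reactions. Its brightest probe set read 3490.2, 4512, 2729.9 and 3192 in erythroid and 6921, 7127, 6619 and 5641 in epithelial captures of pairs 1 to 4. The highest erythroid value lay below the lowest epithelial one. The difference was -0.91 ± 0.14 (adjusted p = 0.00299), a fold of 1.88. Within pairs 1 and 2 it was -0.80, against -1.02 within pairs 3 and 4. It was called under all 17 alternatives, with values from -1.37 to -0.80 and adjusted p from 3.79e-05 to 0.0497. The dimmer probe set of Slc25a15 was not above background on any erythroid array and was above it on all 4 epithelial arrays. With the background level standing in for the erythroid values, this probe set was at least 1.39-fold higher in the epithelial captures. It reached the array median only on those 4 epithelial arrays. It thus passed the filter through the group where it was brighter, and is no separate support. Its measured difference did not pass (adjusted p = 0.0636).

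Slc25a44, a carrier of branched-chain amino acids, read 82.9, 271, 162 and 107 in erythroid and 283, 333, 202 and 148 in epithelial captures. It was lower in all 4 pairs, most in pair 1, at -0.83 ± 0.35 (adjusted p = 0.136). Its other tested probe set gave 0.27 (adjusted p = 0.658). Slc25a47, known from liver, read 102, 61.7, 139 and 32.2 in erythroid and 95.7, 168, 121 and 73.9 in epithelial captures, lower in 2 of 4 pairs as deposited and in all 4 after normalisation. Its difference was -0.73 ± 0.47 (adjusted p = 0.334). The aspartate and glutamate carrier Slc25a13 was at -0.39 ± 0.26, the glutamate carrier Slc25a22 at -0.43 ± 0.52, Slc25a29, which carries basic amino acids, at 0.14 ± 0.39 and Slc25a45 at -0.28 ± 0.35.

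Slc25a38 imports glycine for the first step of heme synthesis, and its loss causes an anaemia of red cell precursors. It read 211, 182, 543 and 465 in erythroid and 200.4, 239, 407 and 527 in epithelial captures of pairs 1 to 4. Both kinds of capture were brighter in pairs 3 and 4, and neither was the higher one throughout. The difference was -0.05 ± 0.23 (adjusted p = 0.921), with a 95% interval from -0.56 to 0.47.

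Both tested carriers of iron, heme and glutathione metabolism were near 0. Slc25a39, the mitochondrial glutathione carrier, read 10382, 9269, 18965 and 15305 in erythroid and 10340.0, 11084, 17209 and 13921 in epithelial captures. The groups overlapped, and the difference was -0.07 ± 0.12 (adjusted p = 0.744) with a 95% interval from -0.34 to 0.20. Its sign changed with the deposited scaling (0.01) and with the mean of its probe sets (0.11). A dimmer probe set of Slc25a39 gave 0.52 ± 0.27 (adjusted p = 0.219). Slc25a28, an importer of iron also called mitoferrin 2, read 223, 272, 702 and 520.0 in erythroid and 229.9, 409.9, 449.9 and 533 in epithelial captures. The erythroid value was above the epithelial one in pair 3 alone, and the difference was -0.03 ± 0.25, with an interval from -0.57 to 0.52.

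Slc25a30, related to the uncoupling proteins, read 114, 141, 144 and 198 in erythroid and 182, 206, 301 and 255 in epithelial captures. It was lower in all 4 pairs at -0.77 ± 0.29 (adjusted p = 0.106), and passed with the filter that asks for all 8 arrays (0.0433, with a range of 0.0433 to 0.975 over all alternatives). Slc25a14, another relative of the uncoupling proteins, read 375, 268, 205 and 104 in erythroid and 276, 452, 302 and 249 in epithelial captures. Pair 1 had the erythroid value above the epithelial one and the other pairs the reverse, at -0.59 ± 0.29 (adjusted p = 0.204). Slc25a46, an outer membrane member of the family that acts in mitochondrial division, was lower in all 4 pairs at -0.31 ± 0.13 (adjusted p = 0.152).

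The sets of pairs with different 3' to 5' ratios were compared by an interaction term. It was called for 0 of 25 carriers at the level of genes (lowest adjusted p 0.147), beside 2% of all genes tested. The median of the members was -0.35 for pairs 1 and 2, against -0.31 for pairs 3 and 4. The absolute change was larger in pairs 3 and 4 for 4 of the 5 called members and for 14 of the 25 tested. At the level of probe sets, 2 of 44 were called, beside 1.84% of all probe sets. A probe set of Slc25a4 was at -0.03 for pairs 1 and 2, against -1.0 for pairs 3 and 4 (adjusted p = 0.0364). Its erythroid values were 4403, 4599.5, 5707 and 5892 and its epithelial values 4672, 4713, 13428 and 9559, so only the epithelial captures of pairs 3 and 4 stood apart. A probe set of Slc25a20 was at 0.54 and -1.92 (adjusted p = 0.0459). Among the 10 members with more than 1 tested probe set, all probe sets had 1 sign in 8. The others were Slc25a39 and Slc25a44.

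**Figure D3:**
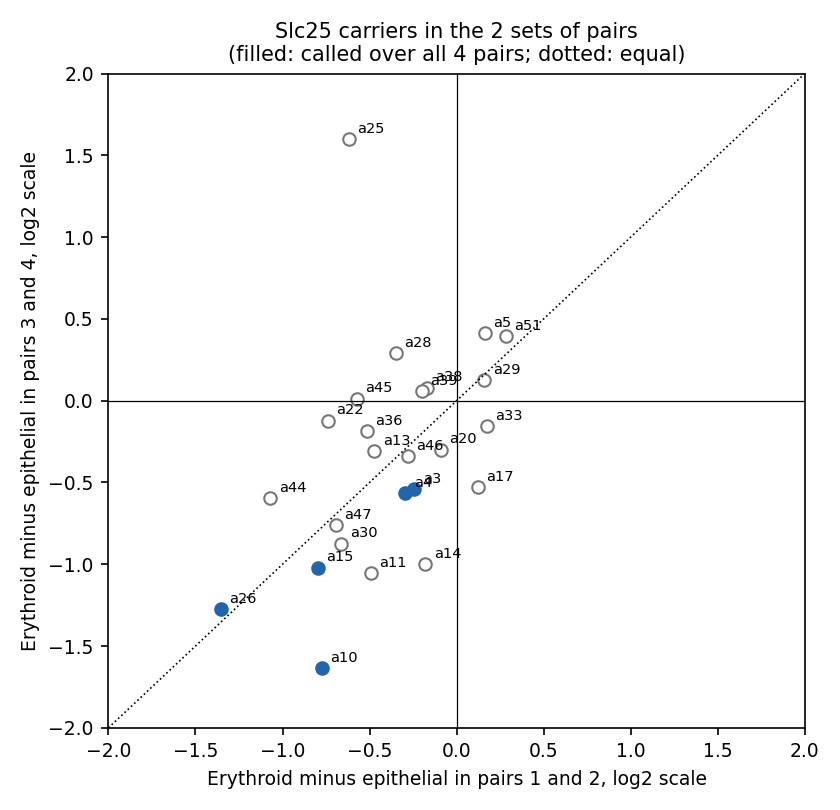
Difference between erythroid and epithelial captures (log2 scale) in pairs 1 and 2 (x axis) against that in pairs 3 and 4 (y axis) for the 25 tested carriers, each labelled without the family's prefix. The 5 called carriers (filled) lie below 0 on both axes, and Slc25a25 lies farthest from the dotted line of equal values, at -0.62 and 1.60.

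Genes that work with the carriers were read from the same fit. Of 65 tested in 8 lists, 10 were higher and 10 lower, beside 6.02% and 8.87% of all genes tested. The directions differed between the lists. Without pair 4 the counts were 2 higher and 4 lower, beside 1.63% and 3.42% of all genes tested. Without pair 3 they were 4 and 5, beside 2.55% and 4.68%. At an unadjusted p under 0.05 in limma, 14.3% of all genes tested were higher and 16.8% lower. The shares over all pairs stand beside the counts of each list below. The carrier import machinery gave 1 of 14 higher and 0 lower (4 and 0 at an unadjusted p under 0.05), with a median of 0.17. The member that rose was Timm10b, a small chaperone of the space between the membranes, by 0.84 ± 0.24 (adjusted p = 0.0433). Its call ended without pair 2 (0.112), without pair 3 (0.129) and without pair 4 (0.187). The outer membrane receptor Tomm22, which lay nearest to 0, was at -0.03 ± 0.19.

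Genes of the mitochondrial steps of heme and iron-sulfur synthesis gave 5 of 10 higher and 0 lower (6 and 1 at an unadjusted p under 0.05), with a median of 0.72. The largest were Alas2, which joins glycine to succinyl-CoA, at 1.98 ± 0.52, Tmem14c, a porphyrinogen transporter, at 1.49 ± 0.16 and Fech, which inserts iron into heme, at 1.27 ± 0.19. The cysteine desulfurase Nfs1, nearest to 0, was at 0.21 ± 0.27. Alas2 was at 0.50 for pairs 1 and 2, against 3.47 for pairs 3 and 4, and this interaction passed (adjusted p = 0.00256). Over all pairs, Alas2 lost its call without pair 3 (adjusted p = 0.105) or pair 4 (0.151). The glycine importer Slc25a38 was at -0.05, the glutathione carrier Slc25a39 at -0.07 and the iron importer Slc25a28 at -0.03. The difference between them and the enzymes was not tested.

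The enzymes of ornithine and arginine metabolism gave 2 of 5 lower and 0 higher (3 and 0 at an unadjusted p under 0.05), with a median of -1.08. The list named 9 genes, 8 of them with a probe set of 1 gene, and only these 5 were bright enough to test. Otc, which joins the ornithine that Slc25a15 imports with carbamoyl phosphate, fell by 1.52 ± 0.38 (adjusted p = 0.0251). It read 98.1, 93.6, 66 and 71.6 in erythroid and 258, 161, 334 and 197 in epithelial captures, and was above background on 1 of 4 erythroid arrays. Otc reached the array median on 4 arrays, all of them epithelial, so it passed the filter only through the group where it was brighter. Its call, 1 of the 2 in this list, and the lack of overlap of its groups are therefore no separate support. Its call ended without pair 1 (0.0699), without pair 3 (0.108) and without pair 4 (0.11). Glul, which makes glutamine, fell by 1.33 ± 0.22 (adjusted p = 0.00368), and Oat, which turns ornithine into a precursor of proline and glutamate, was at -0.23 ± 0.21.

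Among enzymes of the malate-aspartate shuttle and its neighbours, 2 of 5 were lower and 0 higher (3 and 0 at an unadjusted p under 0.05), with a median of -0.32. Glud1, glutamate dehydrogenase, fell by 0.78 ± 0.20 and the mitochondrial aspartate aminotransferase Got2 by 0.58 ± 0.17. The call of Glud1 ended without pair 4 (adjusted p = 0.17) and that of Got2 without pair 2 (0.106), pair 3 (0.108) or pair 4 (0.25). The malate dehydrogenase Mdh1 was at -0.18 ± 0.12. The carnitine shuttle and acyl transfer genes gave 2 of 7 lower and 0 higher (3 and 0 at an unadjusted p under 0.05), with a median of -0.47. These were the peroxisomal carnitine transferase Crot at -1.21 ± 0.21 and the acyl-CoA ligase Acsl4 at -0.98 ± 0.25, whose call ended without pair 1 (0.0501), pair 3 (0.089) or pair 4 (0.0544). The carnitine acetyltransferase Crat was at 0.01 ± 0.56.

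The 3 other lists held genes that moved both ways. Of 10 genes of pyruvate and citrate handling, the pyruvate carrier subunit Mpc1 rose by 1.16 ± 0.33 and the aconitase Aco1 fell by 0.63 ± 0.16, with a median of -0.24. Acly, which splits exported citrate, was nearest to 0 at 0.21 ± 0.14. Of 10 genes of adenine nucleotide use and outer membrane channels, the hexokinases Hk1 and Hk2 rose by 1.41 ± 0.39 and 1.06 ± 0.31 and the adenylate kinase Ak4 fell by 1.17 ± 0.33, with a median of 0.15. The cyclophilin Ppif was at -0.12 ± 0.21. Of 4 genes of mitochondrial one-carbon metabolism, Mthfd2 rose by 1.37 ± 0.26, while Gldc and Gcsh, subunits of the glycine cleavage system, fell by 1.16 ± 0.24 and 0.52 ± 0.09, with a median of -0.35. The serine enzyme Shmt2 was at -0.17 ± 0.24. Without pair 4 the calls of Mpc1 (adjusted p = 0.238), Hk1 (0.186), Hk2 (0.153), Ak4 (0.143), Mthfd2 (0.0521) and Gldc (0.0622) ended. Those of Mpc1 (0.0732), Aco1 (0.0786), Hk1 (0.151), Hk2 (0.111) and Ak4 (0.132) ended without pair 3. The calls of Aco1 and Hk2 also ended without pair 1 (0.0678 and 0.147), and those of Aco1, Ak4 and Mpc1 without pair 2 (0.0857, 0.059 and 0.0991). Gcsh lost its call with each other scaling, and its adjusted p spanned 0.000132 to 0.165 over all alternatives. As deposited it was lower in 3 pairs.

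**Figure D4:**
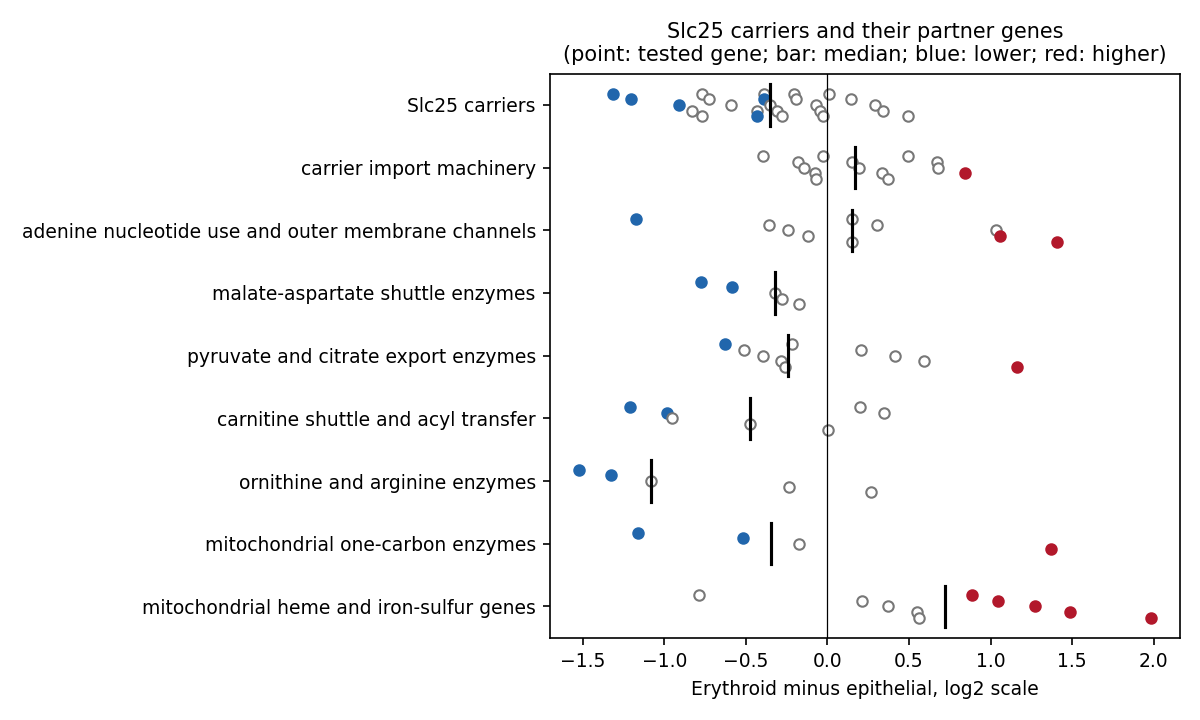
Difference between erythroid and epithelial captures (x axis, log2 scale) for each tested Slc25 carrier and each tested gene of the 8 lists of genes that work with them, with list medians as bars. Coloured points passed the test: the carriers hold 5 lower and 0 higher, the heme and iron-sulfur list 5 higher and 0 lower.

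The 5 called carriers were followed through the other settings. Slc25a15 was called under 17 of 17 alternatives, Slc25a10 under 13 of 17, Slc25a3 and Slc25a4 under 6 of 16 each and Slc25a26 under 4 of 15. Each of the 5 had a value below 0 in every alternative run for it.

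**Figure D5:**
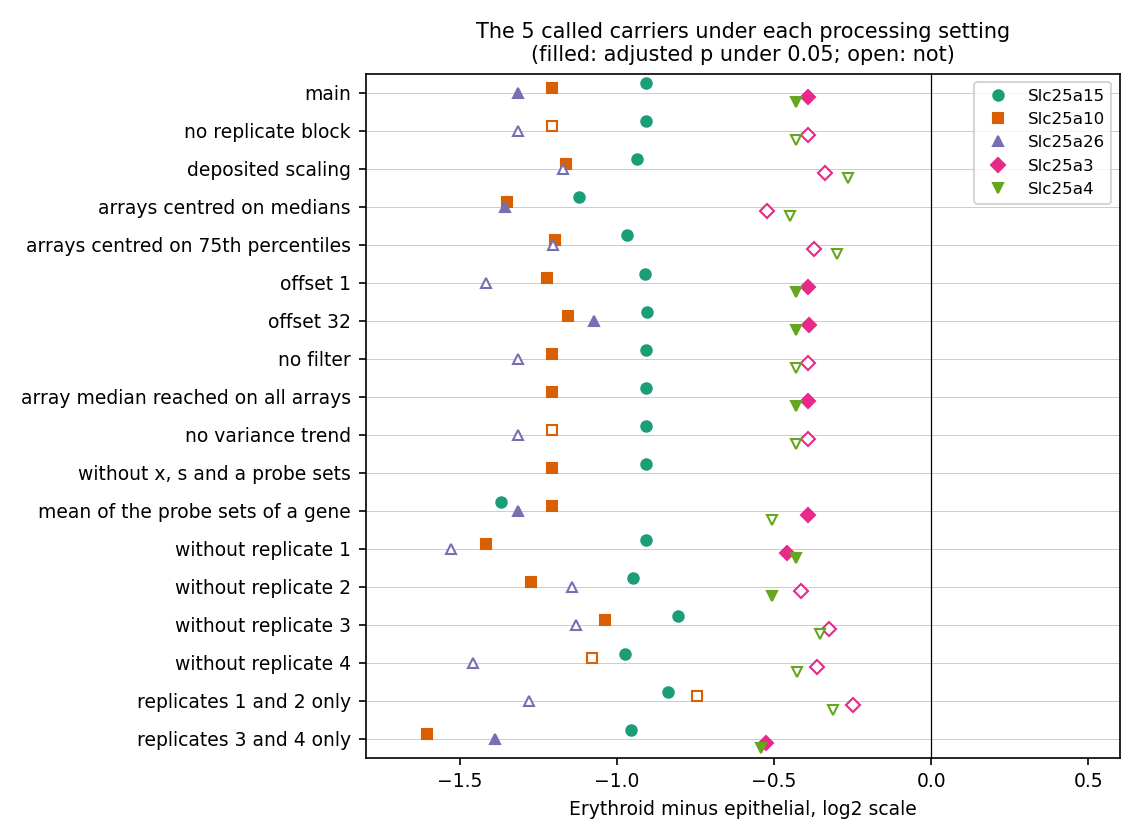
Difference between erythroid and epithelial captures (x axis, log2 scale) for the 5 called carriers under the reported fit and each alternative (y axis), filled where the adjusted p was under 0.05. Slc25a15 is filled under all settings, and all points lie left of 0.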

How the data were processed

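RNA of 4 erythroid and 4 epithelial laser captures was amplified in 2 cycles and hybridised to 8 one-colour arrays. The authors deposited 1 intensity per probe set on a linear scale. GCOS, MAS5 and affy are named in the submitters' processing notes, with versions and settings not given in the sources used here. The mean of each array without the top and bottom 2% of probe sets was 500 in the deposited intensities.

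Control probe sets (64 of 22690) were left out. The remaining intensities were raised by 8.14, the 10th percentile of all values, taken to log2 and quantile normalised. Tests were run on probe sets at or above the array median on 4 of 8 arrays or more. limma 3.58.1 in R 4.3.3 (lmFit, then eBayes with a variance trend) fitted cell type with the pair as a block, two-sided, with Benjamini-Hochberg adjustment over the 11449 probe sets tested and a threshold of 0.05. It was tested on simulated data. For each gene the brightest tested probe set (by its mean over arrays) was taken, and symbols were updated through RefSeq (20351 of 20380 probe sets of 1 gene).

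The pairing comes from the labels, by which both captures of a pair came from the same slides. Deviations from the group means correlated within the 4 pairs at 0.44, 0.34, 0.31 and 0.54, and with other pairs at no more than 0.35, 0.32, 0.28 and 0.33.

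Every carrier could be named. All members called, and the 6 uncalled ones with the largest change, were given with their values on every array. From each partner list came at most the 3 called genes with the largest change in each direction and the gene nearest to 0. The members and lists were chosen with earlier results of these data known. Alternatives changed the block, scaling, offset, filter, variance trend, probe sets, gene summary and pairs used. Per the labels the pairs are separate biological replicates, each of pooled yolk sacs.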

Additional observations from a re-analysis of the deposited data

Results flagged for a closer look

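In 2 of the 44 tested probe sets of the carriers the difference between erythroid and epithelial captures was not the same in pairs 1 and 2 as in pairs 3 and 4 by the interaction term in limma. The change in pairs 3 and 4 minus that in pairs 1 and 2 was -2.46 on the log2 scale for a probe set of the carnitine carrier Slc25a20 (0.54 and -1.92, adjusted p = 0.0459), whose other probe set was at -0.09 and -0.30. It was -0.98 for a probe set of the adenine nucleotide carrier Slc25a4 (-0.03 and -1.0, adjusted p = 0.0364), and the other tested probe sets of Slc25a4 were also lower in pairs 3 and 4 (-0.57 and -0.99). The sets of pairs also differed in the 3' to 5' ratio of the control probe sets and in the markers of both compared cell types and of others. The median of the erythroid markers was 1.33 for pairs 1 and 2 against 3.24 for pairs 3 and 4, that of visceral endoderm -1.07 against -2.08, of mesenchyme 0.34 against 2.53 and of platelets 1.05 against 2.17. Their part was not tested. Of 50 groups of 4 captures examined, 0 held a sample that stood apart from the others.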

How the results depend on the processing

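Slc25a15 was called under all 17 alternatives. Without the replicate block, which ignores the pairing, 1 carrier was called lower, 160 probe sets were higher and 285 lower, and 2 partner genes were higher and 3 lower. Without a variance trend the counts were 1, 179, 339, 2 and 1, with 0 probe sets in the interaction. Without probe sets that can match several transcripts they were 2, 376, 520, 5 and 6. Of all genes tested, 2.95%, 3.42% and 8.11% were called lower in these runs, in the same order. Carriers called lower numbered 2 with the deposited scaling, 3 with arrays centred on medians (455 probe sets higher, 412 in the interaction), 2 with 75th percentiles and 2 with no filter (6 partner genes higher). Among all genes tested, these runs called 8.46%, 11%, 8.68% and 4.14% lower, in the same order. With pairs 1 and 2 alone, 1 carrier and 544 probe sets were called lower and 5 partner genes higher. Of all genes tested, 5.29% were called lower with these pairs. The shares with pairs 3 and 4 alone were 13.7% lower and 11.8% higher. With pairs 3 and 4 alone, 1379 probe sets were higher and 1445 lower, 1 carrier (Slc25a25) was higher and 6 lower (Slc25a11 and the 5 of the reported fit), and 17 partner genes were higher and 14 lower. Leaving out each pair in turn gave 1 to 5 carriers lower, 214 to 717 probe sets higher and 342 to 844 lower, and 2 to 10 partner genes higher and 4 to 10 lower.

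Of the 25 carriers, 11 changed sign under some setting, none of them called in the reported fit. With pairs 1 and 2 alone these were Slc25a25 (-0.56), Slc25a30 (0.043) and Slc25a17 (0.12). With pairs 3 and 4 alone they were Slc25a33 (-0.17), Slc25a5 (-0.31, read from another probe set), Slc25a45 (0.014), Slc25a39 (0.052), Slc25a38 (0.081) and Slc25a28 (0.29). Leaving out each pair in turn, Slc25a22 spanned -0.75 to 0.089, Slc25a25 -0.014 to 1.03, Slc25a28 -0.25 to 0.12, Slc25a33 -0.064 to 0.17, Slc25a38 -0.19 to 0.013, Slc25a39 -0.16 to 0.074 and Slc25a44 -0.93 to 0.15 (another probe set without pair 2). Scaling turned Slc25a33 (-0.071, medians) and Slc25a39 (0.0062, deposited), and the mean of probe sets turned Slc25a39 (0.11). The cause was not tested. Carriers near background have values of low precision on 8 arrays.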
